A study of Mus musculus with 30 samples.

Results

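Txnip, 4 genes of its arrestin-domain family (Arrdc1, Arrdc2, Arrdc3 and Arrdc4) and the genes of the glucose-sensing factors that act on Txnip (Mlxip and Mlxipl) were examined for UTX and Menin peaks in mouse leukaemia cells. These 7 genes, of 21887 protein-coding genes in RefSeq GRCm38, were chosen by name, with the high UTX peak at Txnip already known. A peak was counted for a gene when its summit lay inside the gene or within 5 kb of it. By that rule the 4 lists held 18 peaks at these genes, 11 for UTX in MI-503, 1 for UTX in DMSO, none for Menin in MI-503 and 6 for Menin in DMSO.

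The cells were WT-MA9, a line of acute myeloid leukaemia from the mouse with stable expression of pMSCV-MLL-AF9-GFP. All 4 libraries share that genotype, and each was harvested 4 days after treatment with MI-503 or with the vehicle DMSO. MI-503 is an inhibitor that keeps Menin from binding MLL1, used at a concentration not given in the sources used here. Menin is a scaffold of the MLL1 and MLL2 histone methyltransferase complexes, and UTX is a histone demethylase of the MLL3 and MLL4 complexes. The series title describes a switch between these complexes, and the lists show where each protein was found with and without the drug. With 1 library per condition, no difference between conditions has a replicate check, and no p-value was computed.

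Txnip binds thioredoxin and blocks its reducing activity, and it lowers glucose uptake by drawing glucose transporters into the cell. Its transcription is driven by MondoA (encoded by Mlxip) or ChREBP (encoded by Mlxipl), each paired with Mlx on a carbohydrate response element. The gene thus rises with glucose supply, and its product restrains uptake. Arrdc4 is also a MondoA target that lowers glucose uptake, as known from human cells. Other arrestin-domain proteins link membrane receptors to ubiquitin ligases of the NEDD4 type.

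The promoter sequences of 4 of the genes are shown because summits of the 3 with peaks lie among or beside CCAAT boxes, the letters that the factor NF-Y recognises. NF-Y is among the proteins mapped in the series, in libraries not analysed here. Each sequence holds the 250 bases before the RefSeq start on the coding strand, in the direction of transcription (RefSeq, GRCm38.p6). Capitals mark CCAAT or its reverse complement ATTGG. The Txnip window is chr3:96557707-96557956 on the plus strand. The Arrdc4 window is chr7:68749239-68749488, and the Arrdc2 window is chr8:70839721-70839970, both on the minus strand. Mlxipl, at the outer of its 2 starts (chr5:135089640-135089889, plus strand), is given as the gene without a peak.
Txnip: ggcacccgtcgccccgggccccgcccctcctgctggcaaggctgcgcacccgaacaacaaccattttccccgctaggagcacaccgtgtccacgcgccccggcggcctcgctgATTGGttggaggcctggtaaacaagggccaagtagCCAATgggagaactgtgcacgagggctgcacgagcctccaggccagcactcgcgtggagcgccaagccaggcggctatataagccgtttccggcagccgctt
Arrdc4: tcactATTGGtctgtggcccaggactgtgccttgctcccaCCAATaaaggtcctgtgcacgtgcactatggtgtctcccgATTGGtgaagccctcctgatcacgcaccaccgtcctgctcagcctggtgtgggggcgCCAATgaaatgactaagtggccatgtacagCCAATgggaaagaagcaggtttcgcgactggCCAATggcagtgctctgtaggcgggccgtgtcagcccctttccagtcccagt
Arrdc2: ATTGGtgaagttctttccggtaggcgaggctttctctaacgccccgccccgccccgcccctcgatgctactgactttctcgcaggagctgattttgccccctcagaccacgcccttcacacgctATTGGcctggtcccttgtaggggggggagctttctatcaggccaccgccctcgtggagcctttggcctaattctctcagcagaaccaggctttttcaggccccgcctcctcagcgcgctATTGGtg
Mlxipl: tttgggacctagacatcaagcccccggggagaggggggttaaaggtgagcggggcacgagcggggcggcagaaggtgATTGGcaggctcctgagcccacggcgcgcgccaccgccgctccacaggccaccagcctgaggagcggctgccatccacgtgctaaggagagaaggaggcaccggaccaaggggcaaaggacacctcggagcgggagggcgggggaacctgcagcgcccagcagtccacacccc

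UTX in MI-503 had a peak at 6 of the 7 genes (Txnip, Arrdc1, Arrdc2, Arrdc3, Arrdc4 and Mlxip), where 48.3% of all protein-coding genes had one. In UTX DMSO, Txnip was the 1 gene of the 7 with a peak, against 1.07% of all genes. No gene of the 7 had a Menin peak in MI-503, where 0.0183% of all genes did. In Menin DMSO a peak was found at 6 genes, those with a UTX MI-503 peak, against 42.9% of all genes. Both UTX MI-503 and Menin DMSO peaks were found at 38.0% of all genes. Txnip was also the 1 gene of the 7 with peaks in both UTX lists and in Menin DMSO, against 1.05% of all genes. Arrdc1, Arrdc2, Arrdc3 and Arrdc4 each had more than 1 UTX MI-503 peak, as had 18.6% of all genes. None of the 7 had more than 1 Menin DMSO peak, against 11.6% of all genes. Since the genes were chosen with these lists known, the counts describe them and test nothing.

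Mlxipl, whose product ChREBP is known chiefly from liver, fat and pancreatic islets, had no peak in any of the 4 lists. The summits nearest to it lay 9799 bp away for UTX in MI-503 (11.6-fold) and 9785 bp away for Menin in DMSO (22.1-fold), both inside the neighbouring gene Tbl2. At the 5 kb limit, the farthest summit counted was a 6.02-fold UTX MI-503 peak 4879 bp from Arrdc2, which lies inside the neighbouring gene Kcnn1. The nearest summit left out was a 6.71-fold Menin DMSO peak 5671 bp from Arrdc1, within 5 kb of Ehmt1.

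**Figure D1:**
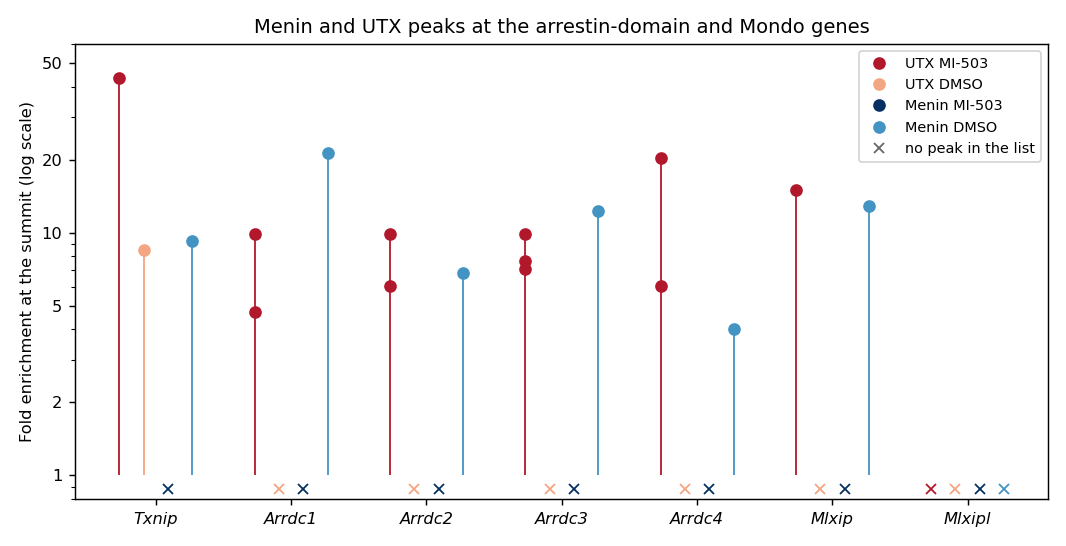
Fold enrichment at the summit (log scale) of every peak at the 7 genes, with a point per peak, a line down to 1 and a cross where the list has no peak. Txnip stands at 43.6-fold in UTX MI-503 and 8.49-fold in UTX DMSO, Menin MI-503 has a cross at each gene, and Mlxipl has a cross in all 4 lists.

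Fold enrichment is the authors' own value for each peak, the pileup of fragments at the summit over the local background. It was used to describe and rank peaks within a list, with tied peaks given the first rank of their tie. The number of fragments over the summit base and the background were recovered from the deposited fold and p-value, and fragments are given with exact Poisson 95% intervals. These intervals cover counting error only, and a summit is by construction the highest point of its peak. Pileups of the UTX MI-503 and Menin DMSO lists were whole numbers, while those of the UTX DMSO list were multiples of 0.874. MACS2 by default scales the larger of library and input down to the smaller. On that default, the read number of the UTX DMSO library was at least 1.14 times that of its MI-503 counterpart. Both UTX lists were called against 1 input, and both Menin lists against another. The WT-MA9 inputs labelled in the series are all from DMSO, and none is from MI-503. Absolute depth is unknown.

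Txnip carried one of the highest UTX peaks in MI-503. The peak (chr3:96557546-96558126) had a fold of 43.6, rank 7 of 14231 by fold and rank 3 by −log10 q. It rested on 107 fragments over the summit (interval 87.7 to 129) and a background of 1.47. In DMSO the UTX peak (chr3:96557710-96557928) had a fold of 8.49, rank 61 of 217, with 28 fragments (18.6 to 40.5) on a background of 2.29 fragments. The fold in MI-503 was 5.14 times that in DMSO, against a median of 2.76 times over all 205 overlapping pairs of the 2 UTX lists, so higher fold in MI-503 was usual where both lists had a peak. Of these pairs 10, Txnip included, had a ratio as high. The Poisson intervals of the 2 fragment counts did not overlap, but they cover neither the spread between libraries nor the difference in depth, whose part in the ratio was not tested. MACS2 extends reads to an assumed fragment length, which enters these counts. The narrowest peak, which follows that length, was 179 bp in the MI-503 list and 127 bp in the DMSO list, and its part in the difference was not tested. The Txnip peak was 581 bp wide in MI-503 and 219 bp wide in DMSO, and the summits lay 11 bp apart.

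Menin at Txnip was listed in DMSO and not in MI-503, where the whole list held 8 peaks. Of the 11195 Menin DMSO peaks, 1 was overlapped by a Menin MI-503 peak, so absence from that list is not particular to Txnip. The Menin DMSO peak (chr3:96557574-96557960) had a fold of 9.24, rank 2504 of 11195, with 61 fragments (46.7 to 78.4) on a background of 5.71. That background was 2.44 times the lowest of the list. By −log10 q, which takes the number of fragments into account, the peak ranked higher, at 1713. Its summit was the same base as the UTX MI-503 summit, 116 bp before the Txnip start.

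The summit base lies in a FOXO motif between the CCAAT boxes of the Txnip sequence printed above. The boxes lie on opposite strands, at bases −137 to −133 and −102 to −98 counted from the start, with their first bases 35 bp apart. The middles of the boxes were 19 and 16 bp from the shared UTX MI-503 and Menin DMSO summit. The FOXO motif TGTTTAC, found as GTAAACA at −121 to −115, had its middle 2 bp from that summit. A carbohydrate response element was searched as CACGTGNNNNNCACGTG with at most 2 mismatches among its 12 fixed letters. Txnip was the 1 gene of the 7 with such a match (chr3:96557872-96557888), at −85 to −69, with its middle 39 bp from the summit. It is shown with the letters that match the motif in capitals.
Txnip carbohydrate response element: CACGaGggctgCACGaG

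Among 32851 RefSeq promoter windows of the same length, 0.779% held such an element, 3.17% held the FOXO motif and 33.8% held at least 1 CCAAT box, each searched on both strands. These matches describe letters and do not show binding.

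Arrdc4 had the next highest UTX peak in MI-503 among the 7 genes and the lowest Menin peak in DMSO. The UTX MI-503 peak (chr7:68748934-68749632) had a fold of 20.2, rank 870 of 14231, with 36 fragments (25.2 to 49.8) on a background of 0.827, the lowest of the list. The Menin DMSO peak (chr7:68749240-68749533) had a fold of 4.03, rank 9744 of 11195, with 26 fragments (16.98 to 38.1) on a background of 5.71. The fragment intervals of the 2 peaks overlap, and the Menin background was 2.44 times the lowest of its list. The part of the background in the 2 ranks was not tested. By rank over list length, the Arrdc4 peak stood at 6.11% of the UTX MI-503 list and at 87.0% of the Menin DMSO list. Of 7781 overlapping pairs between the UTX MI-503 and Menin DMSO lists, 0.887% had a gap in these percentages as large in that direction. The same share was 28.9% for Txnip and 45.1% for Arrdc2 and, in the other direction, 12.3% for Arrdc1 and 33.4% for Mlxip. Arrdc3 is left out because its highest peaks in the 2 lists do not overlap. A gap in percentages is bounded at the top of a list, where the Txnip UTX peak stands. The ratio of UTX MI-503 fold to Menin DMSO fold was 5.03 at Arrdc4 and 4.72 at Txnip. Of the pairs, 1.08% had a ratio as high as at Arrdc4 and 1.49% as high as at Txnip. Ranked by −log10 q in place of fold, the Arrdc4 peak stood at 72.7% of the Menin DMSO list. The summits lay 16 bp apart, at 135 bp before the start for UTX MI-503 and 119 bp before it for Menin DMSO. A further UTX MI-503 peak of 6.02-fold lay inside the gene, 466 bp after the start (chr7:68748690-68748875), with 10 fragments and no Menin DMSO peak over it.

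The Arrdc4 sequence holds 6 CCAAT boxes between −245 and −48, and 19 of 32851 promoter windows (0.0578%) hold as many or more. The middle of the nearest box lay 24 bp from the UTX MI-503 summit and 8 bp from the Menin DMSO summit. The window also has an E-box, CACGTG, at −193 to −188, which 6.02% of windows hold. An element of the carbohydrate response kind was met there with 3 mismatches allowed and not with 2. With 3 allowed, 7.02% of all windows held such a match. The outer window of Mlxipl, the gene without a peak, also holds an E-box and a match with 3 mismatches. Arrdc2 holds 3 boxes, Txnip and Mlxip 2 each, and Mlxipl 1, in its outer window. Arrdc3 holds 1 box, common to the windows of both its outer starts, and Arrdc1 holds none. Windows of nearby starts of 1 gene can overlap, as at Arrdc3, so windows are not independent and the intervals that follow may be too narrow. Over all windows, the share with a UTX MI-503 summit within 1 kb of the start was 25.9% (exact 95% interval 25.3 to 26.4%) with no box. With exactly 1 box, the number at Arrdc3 and Mlxipl, it was 25.3% (24.4 to 26.3%), no higher than with none. It was 38.8% (36.8 to 40.8%) with 2 boxes, 55.5% (51.6 to 59.4%) with 3 and 69.4% (62.6 to 75.6%) with 4. With exactly 5 boxes, 51 windows gave 76.5% (62.5 to 87.2%), and with exactly 6 boxes, 16 windows gave 68.8% (41.3 to 89.0%). The GC box GGGCGG, searched the same way, was in 32.7% of all windows. Of windows with a UTX MI-503 or Menin DMSO summit within 1 kb, 63.6% held it. For CCAAT these shares were 33.8% and 37.5%. Each of these motifs was found at 6 of the 7 genes. The part of base composition in the shares by number of CCAAT boxes was not tested.

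**Figure D2:**
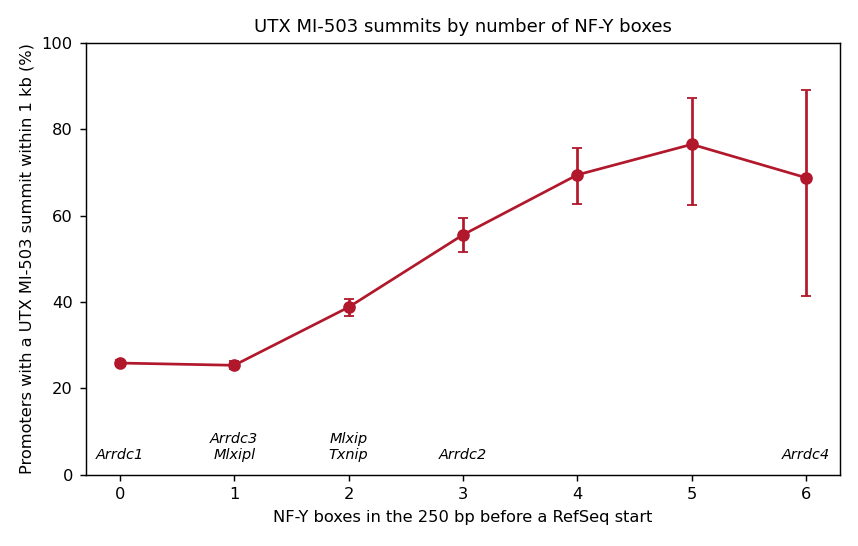
Share of promoter windows with a UTX MI-503 summit within 1 kb of the start, in percent, by the number of NF-Y boxes in the 250 bp before the start, with exact 95% intervals for counting error. The intervals treat windows as independent, although windows of nearby starts of 1 gene can overlap. Gene names stand at the highest number of boxes in any window of that gene, from none for Arrdc1 to 6 for Arrdc4.

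Arrdc1, whose product drives the budding of vesicles from the plasma membrane, stood higher in its Menin DMSO list than in its UTX MI-503 list. Its highest UTX MI-503 peak (chr2:24934865-24935354) had a fold of 9.92, rank 4215, with 19 fragments (11.4 to 29.7), and its summit lay 247 bp after the RefSeq start. A lower UTX MI-503 peak of 4.71-fold (chr2:24935665-24935843), with 9 fragments (4.12 to 17.1), had its summit at −432 bp from the start and ranked 13573 of 14231. The Menin DMSO peak (chr2:24934941-24935804) had a fold of 21.4, rank 267 of 11195, with 85 fragments (67.9 to 105), the highest Menin peak among the 7 genes. It was 864 bp wide and overlapped both UTX peaks, and its summit lay between theirs, 253 bp from the nearer one. The Menin summit at Arrdc1 thus fell where the UTX MI-503 list had no peak, unlike at Txnip and Arrdc4. Over all overlapping pairs of the 2 lists, the median distance between summits was 41 bp, and 78.7% lay within 100 bp of each other.

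Arrdc3, an arrestin-domain gene whose product acts on the beta-2 adrenergic receptor, was the 1 gene of the 7 with 3 UTX MI-503 peaks, which 6.23% of all genes reached. RefSeq gives it 3 starts, an outer pair at 80883384 and 80883422 and an inner one at 80886095 on chromosome 13. The peak at the outer pair (chr13:80883207-80883395) had a fold of 7.66, with 13 fragments (6.92 to 22.2), and its summit lay 60 bp before the first start. The highest (chr13:80885535-80886002) had a fold of 9.85, with 17 fragments (9.90 to 27.2), with its summit at −414 bp from the inner start. The last (chr13:80886101-80886434) had a fold of 7.11, with 12 fragments (6.20 to 21.0), and lay 120 bp after the inner start. The 3 intervals overlap, so these peaks could not be told apart in height at this depth. Menin in DMSO had 1 peak at Arrdc3 (chr13:80886038-80886366), of 12.4-fold, rank 1326, with 42 fragments (30.3 to 56.8). Its summit lay 104 bp after the inner start and 16 bp from that of the last UTX peak. No Menin DMSO peak lay over the other two UTX peaks, the one at the outer starts among them.

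Arrdc2, an arrestin-domain gene with a less settled role, had a UTX MI-503 peak across its start (chr8:70839441-70840065) of 9.85-fold. Its 17 fragments stood on the lowest background of the list, the same values as at the highest Arrdc3 peak, so both tie at rank 4256. The Menin DMSO peak (chr8:70839435-70840077) had a fold of 6.84, rank 4418, with 56 fragments (42.3 to 72.7) on a background of 7.34, which was 3.14 times the lowest of its list. Both peaks covered nearly the same bases, 625 bp for UTX MI-503 and 643 bp for Menin DMSO, with summits 65 bp apart. The UTX summit lay 10 bp before the start, and the middle of the nearest CCAAT box was 5 bp from it. By −log10 q the Menin peak ranked 2661, higher than by fold.

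Mlxip, which encodes MondoA, had peaks of similar rank in both lists. The UTX MI-503 peak (chr5:123394368-123394990) had a fold of 15.0, rank 1971, with 28 fragments (18.6 to 40.5). The Menin DMSO peak (chr5:123394326-123394993) had a fold of 12.9, rank 1171, with 54 fragments (40.6 to 70.5). By rank over list length, these peaks stood at 13.9% of the UTX MI-503 list and at 10.5% of the Menin DMSO list. The summits lay 225 bp apart, at −70 bp from the start in the RefSeq promoter table for UTX MI-503 and −295 bp for Menin DMSO. The RefSeq gene itself begins upstream of that start, at 123394521. The Menin DMSO summit lay 18 bp before the gene, and the UTX MI-503 summit lay inside it. Its window holds 2 CCAAT boxes, the nearer 24 bp from the UTX MI-503 summit and the other 51 bp from the Menin DMSO summit. Thus of the paired factors that act on Txnip, the MondoA gene had both peaks and the ChREBP gene neither.

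**Figure D3:**
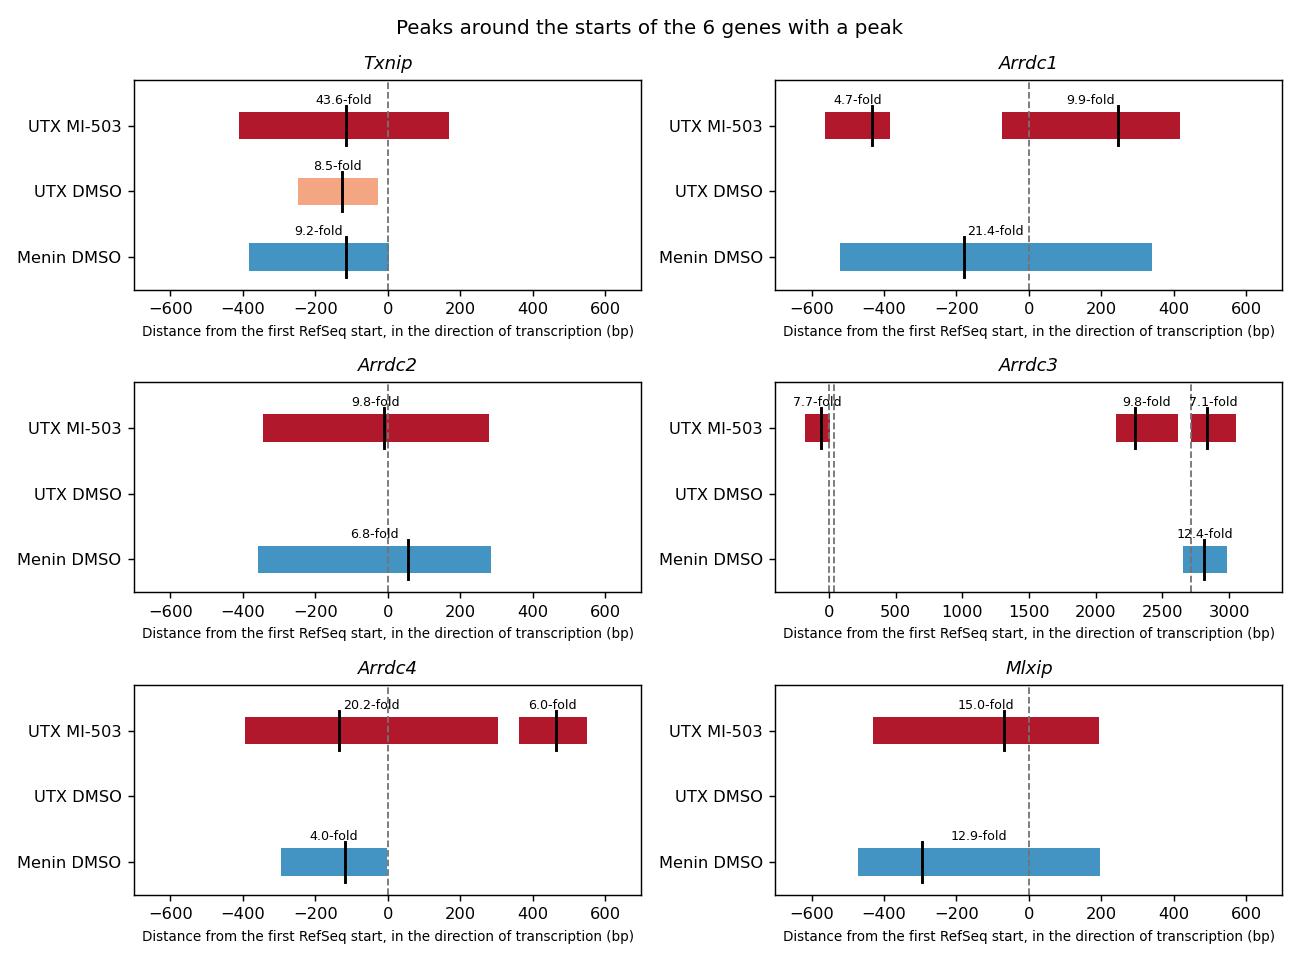
Peaks as bars and summits as black ticks, by distance in bp from the first RefSeq start in the direction of transcription, for the 6 genes with a peak, with RefSeq starts as dashed lines. The Txnip summits coincide for UTX MI-503 and Menin DMSO, the Arrdc1 Menin summit lies between the UTX peaks, and the 4879 bp distant Arrdc2 peak is outside the range drawn.

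By fold in UTX MI-503 the order of the highest peaks was Txnip, Arrdc4, Mlxip, Arrdc1, then Arrdc2 and Arrdc3 together. The interval of the Txnip fragments lay above those of the other 5 genes, while neighbours in the rest of the order overlapped. By fold in Menin DMSO the order was Arrdc1, Mlxip, Arrdc3, Txnip, Arrdc2 and Arrdc4. Txnip held the next to highest number of Menin fragments, 61, after Arrdc1 with 85, and Arrdc4 the lowest, 26. The median fold of the 11 UTX MI-503 peaks was 9.85, against 7.11 over the list, and that of the 6 Menin DMSO peaks was 10.8, against 5.87. Summits lay within 1 kb of a start of the gene for 10 of 11 UTX MI-503 peaks, the 1 UTX DMSO peak and 6 of 6 Menin DMSO peaks. Within 1 kb of any RefSeq start lay 55.5% of all UTX MI-503 peaks (54.7 to 56.3%), 65.9% of all UTX DMSO peaks (59.2 to 72.2%) and 53.5% of all Menin DMSO peaks (52.5 to 54.4%). The sets are unlike, since peaks of the 7 genes lie within 5 kb of a gene by rule, while the lists also hold peaks far from genes. Nearness to a start is thus partly built in. The list medians above and the overlap shares below also cover whole lists. A Menin DMSO peak overlapped 7 of the 11 UTX MI-503 peaks by at least 1 bp, against 53.4% of the list. In turn a UTX MI-503 peak overlapped 6 of 6 Menin DMSO peaks, against 66.4% of the list. These lists differ in antibody and in treatment, and overlap between them does not place both proteins at a gene at one time.

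**Figure D4:**
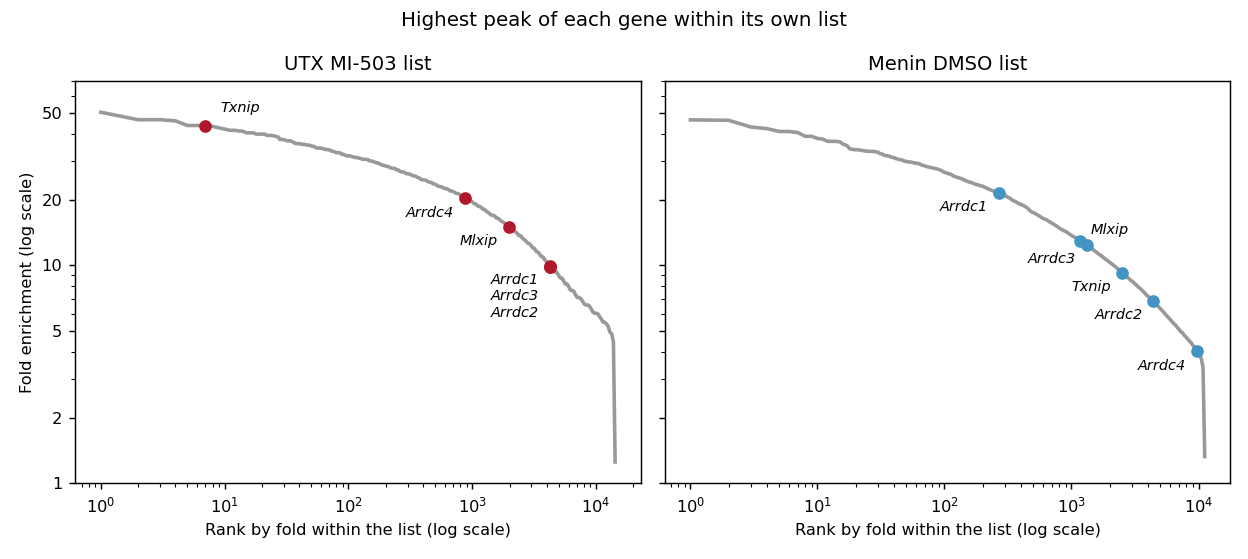
Fold against rank by fold within the UTX MI-503 list (left) and the Menin DMSO list (right), both axes on a log scale, with all peaks as a grey line and the highest peak of each gene as a point. Txnip stands at rank 7 in UTX MI-503 and 2504 in Menin DMSO, and Arrdc4 at 870 and 9744.

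**Figure D5:**
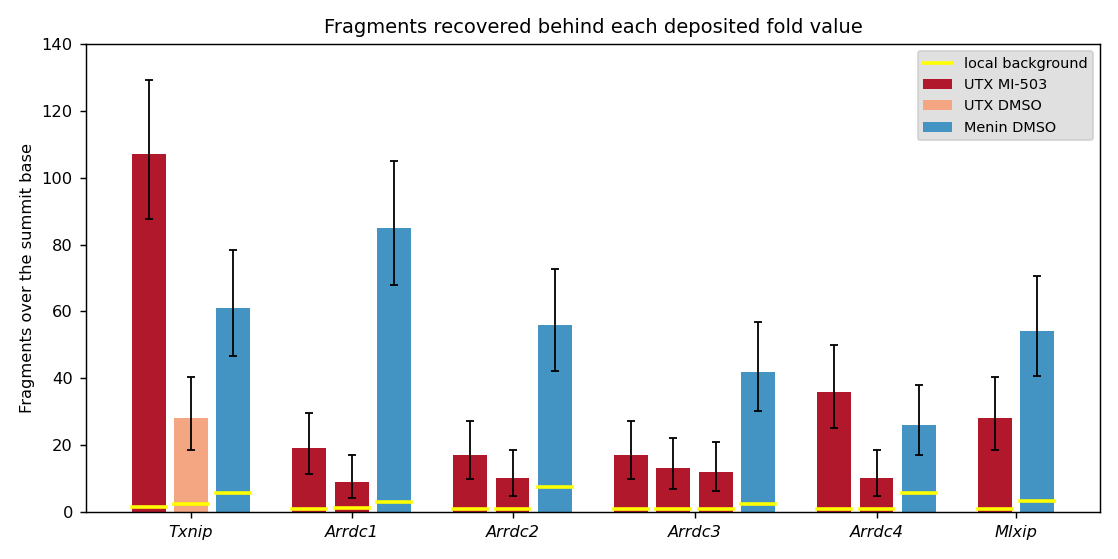
Fragments over the summit base of each peak (bars, with exact Poisson 95% intervals for counting error) and the local background in fragments (yellow lines). Txnip in UTX MI-503 reaches 107 fragments, and the other UTX MI-503 bars lie between 9 and 36.

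Genes around this pathway were read from lists of known members, 54 genes besides the 7. UTX peaks were found at 39 of them in MI-503 and at 0 in DMSO, and Menin peaks at 0 of them in MI-503 and at 36 in DMSO. Both UTX MI-503 and Menin DMSO peaks were present at 34. Over all genes the shares were 48.3% in UTX MI-503, 1.07% in UTX DMSO, 0.0183% in Menin MI-503, 42.9% in Menin DMSO and 38.0% for both long lists, so that 0 of 54 in either short list is near the general rate. These shares are the background for each count that follows, and with 3 to 14 genes a list no count was read as particular to its list. Arrdc5, the remaining gene of the family, had 22.4-fold in UTX MI-503 and 9.16-fold in Menin DMSO. Mlx, the partner of MondoA and ChREBP, had 14.8-fold in UTX MI-503 and 7.31-fold in Menin DMSO.

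The thioredoxin system covers the thioredoxins and their reductases. It had UTX MI-503 peaks at 4 of 5 genes (48.3% over all genes) and Menin DMSO peaks at 4 of 5 (42.9% over all genes). Txn1, the cytosolic thioredoxin, had 7.90-fold in UTX MI-503 and 18.0-fold in Menin DMSO. Txn2, its mitochondrial form, had 16.97-fold in UTX MI-503 and 23.4-fold in Menin DMSO. The reductase genes Txnrd1 and Txnrd3 had 6.24-fold and 7.11-fold in UTX MI-503, and 7.74-fold and 11.2-fold in Menin DMSO. Txnrd2 had no peak in the 4 lists. NEDD4-type ligases had UTX MI-503 peaks at 7 of 9 genes and Menin DMSO peaks at 6 of 9, and Wwp1 (16.7-fold in UTX MI-503, 5.07-fold in Menin DMSO) and Wwp2 (14.3-fold and 5.63-fold in the same order) had both. Itch and Nedd4l had UTX MI-503 alone, and Smurf1 had Menin DMSO alone.

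Glucose uptake and its first steps had a UTX MI-503 peak at 9 of 13 genes (48.3% over all genes) and a Menin DMSO peak at 9 of 13 (42.9% over all genes). Slc2a1, which encodes the transporter GLUT1, had 7.64-fold in UTX MI-503 and 9.86-fold in Menin DMSO. Slc2a3 had 6.11-fold in UTX MI-503 and 8.17-fold in Menin DMSO, and Slc2a2, the transporter gene of liver and islets, had no peak. Of 14 target genes of ChREBP or MondoA known from metabolic tissue, UTX MI-503 peaks were found at 9 and Menin DMSO peaks at 8. Acly, which makes acetyl-CoA from citrate, had 18.8-fold in UTX MI-503 and 11.3-fold in Menin DMSO. Pklr, the liver pyruvate kinase gene, and Scd1 had no peak. The AMPK subunits, whose kinase senses low energy, had UTX MI-503 peaks at 5 of 7 genes and Menin DMSO peaks at 4 of 7, with Prkag1 at 31.2-fold in UTX MI-503 and 10.9-fold in Menin DMSO. Of the 4 beta and visual arrestin genes, 3 had both peaks, Arrb2 at 13.7-fold in UTX MI-503 and 10.9-fold in Menin DMSO among them, and the photoreceptor gene Arr3 had neither.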

How the data were processed

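Chromatin immunoprecipitation libraries of Menin and UTX in WT-MA9 cells were analysed, 1 each in MI-503 and DMSO. Of 30 labelled libraries in the series, 26 were not analysed here. Per the labels' protocols, cells were fixed for 5 minutes and sonicated for 14 minutes. Peaks were called with MACS2 against mm10, per the submitters' processing notes. The submitters' version, aligner, read filters and threshold were not given in the sources used here. Per the peak names in the deposited files, every list comes from 1 library and its input. The deposited fold values are ratios of summit pileup to local background, with a pseudocount of 1 on each. The deposited −log10 values give p and q at the summit, and the deposited score is derived from −log10 q. Summit offsets are also deposited.

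Peaks were joined to RefSeq genes (GRCm38.p6, the assembly of mm10) in Python 3.11.15 with pandas 2.3.3 and SciPy 1.17.1. Starts and strands came from the RefSeq promoter table, which holds all 7 genes. Positions count from 1. Fragments and background were solved together from fold and p, to within 0.002 of −log10 p. A single solution was found for 99.7% of UTX MI-503, 99.5% of UTX DMSO and nearly all Menin DMSO peaks. The step of 0.874 matched 55 of 55 UTX DMSO peaks tried, and other steps at most 16. Scripts were tested on simulated data. Every peak of the 7 genes is named. From the pathway lists, counts are given for each list, and genes are named from the first 6 in list order. The members and lists were chosen with earlier results of these data known. Alternatives covered the window, the peak thresholds, the assignment and overlap rules, the ranked value and the motif mismatches.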

Additional observations from a re-analysis of the deposited data

How the results depend on the processing

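No paired analysis was possible because each condition has 1 library, and no replicate could be left out for the same reason. Numbers of the 7 genes with a peak kept within 1.5 times of the values given under windows of 1 and 10 kb, stricter q or fold, assignment by any base or by nearest gene, and the UTX MI-503 and Menin DMSO lists cut to the same number of peaks. At 10 kb, 7 of 7 genes had a UTX MI-503 and a Menin DMSO peak, with Mlxipl added by the summits inside Tbl2. With summits inside genes alone, genes with a peak numbered 0 for UTX DMSO and 2 for Menin DMSO, since most summits lie before the start. With every list cut to the length of the UTX DMSO list, 1 gene remained for UTX MI-503 and 0 for Menin DMSO. That cut was not possible for the 8 Menin MI-503 peaks. Shares over all genes are given here at 5 kb and full lists only, so counts under other settings have no such background beside them. UTX MI-503 peaks of these genes overlapped by Menin DMSO numbered 4 with 50% of both peaks shared, and 4 with summits within 200 bp. The share of the whole list is given here at 1 bp overlap only, so whether it falls likewise was not tested. The median position of a gene's highest peak, as rank over list length, was 21.7% for UTX MI-503 and 17.1% for Menin DMSO. It became 24.0% and 19.0% among peaks near genes, and 31.4% and 12.7% among peaks on at most 1.5 times the lowest background, where genes on higher background drop out. With 0 mismatches, 0 genes had a carbohydrate response element, and with 3 allowed, 3 had one, as had 7.02% of all promoter windows. Among promoters with a summit within 1 kb, 37.5% held a CCAAT box, 63.6% the GC box, 1.19% the carbohydrate response element and 1.83% the FOXO motif. Depth limits what a missing peak shows: a gene without a peak was below the detection of that list, not shown to lack the protein.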

Other observations

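The surroundings of the 7 genes differed in how many peaks they held. Within 50 kb of Arrdc2 lay 6 UTX MI-503 peaks and 7 Menin DMSO peaks, its own included, and within 50 kb of Txnip lay 5 and 4. Arrdc3 had 3 UTX MI-503 peaks within 50 kb, all at the gene itself, and its next UTX MI-503 summit lay 761618 bp away. Arrdc4 likewise had 2 UTX MI-503 peaks within 50 kb, both its own. Within 50 kb of Txnip there were 2 UTX DMSO peaks, its own and another 32325 bp from the gene, while no other gene of the 7 had a UTX DMSO peak within that distance.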
